A study of Mus musculus with 2 samples.

Results

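The distal imprinted microRNA genes of mouse chromosome 12 were measured in hippocampus at 10 days of age. They were defined by position alone, as the microRNA genes of GENCODE M21 on the plus strand that lie fully within chr12:109611500-109747960 (mm10), and 44 of the 2202 microRNA genes in the counts met this rule. The window holds the microRNA genes in and around the long non-coding genes Rian and Mirg. The 2 libraries form 1 group: small RNA (below 30 nt) from tissue given as layer of hippocampus, from female B6CASTF1/J mice, first-generation hybrids of C57BL/6J and CAST/EiJ, with no treatment or second genotype in the labels. The labels call the libraries biological replicates, list a different set of 3 females for each and give both the same donor entry, so animals could not be compared one by one. The files do not separate reads by parental allele.

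The Dlk1-Dio3 region is imprinted: its protein-coding genes are expressed from the paternal chromosome, and its non-coding RNAs, microRNAs included, from the maternal one. The distal microRNAs are thought to be cut from long precursor transcripts that run through Rian and Mirg, and they are known from brain, where several are induced by neuronal activity through the transcription factor Mef2. A microRNA finds its messenger RNA targets mainly through its seed, bases 2 to 8 from the 5′ end. Each hairpin can give 2 mature arms, named 5p and 3p, and the deposited counts are per gene and do not separate them. A-to-I RNA editing of mature sequences is known for several of these microRNAs in brain, and the counts per gene do not separate edited reads either.

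The sequences of the 3 most abundant members are given first, because most counts of the locus lie in a few hairpins. Those of Mir409 and Mir134 are added as examples and not by rank. All sequences are the mature arms in RefSeq (GRCm38.p6), on the plus strand of chromosome 12, with the seed in capitals. Of the 44 genes, 42 had at least 1 mature arm in that table, and 78 arms were read from it.
miR-487b-5p: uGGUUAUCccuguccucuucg
miR-382-5p: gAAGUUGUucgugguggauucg
miR-382-3p: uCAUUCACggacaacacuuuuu
miR-541-5p: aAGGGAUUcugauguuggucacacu
miR-541-3p: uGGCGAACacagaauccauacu
miR-409-5p: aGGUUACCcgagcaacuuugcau
miR-409-3p: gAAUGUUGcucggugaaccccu
miR-134-5p: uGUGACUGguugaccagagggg
miR-134-3p: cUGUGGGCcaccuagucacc

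Pairs of members with the same seed in at least 1 arm are shown next, since members with the same seed can recognise overlapping target sets. Among the 78 arms there were 7 such seeds, each shared by 2 members, and they involved 12 genes. The table held 1 arm each of Mir882, Mir376c, Mir487b, Mir539, Mir485 and Mir453 and none of Gm23912 and Gm27379, so a seed on another arm of these genes is not counted.
miR-379-3p: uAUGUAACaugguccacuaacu
miR-411-3p: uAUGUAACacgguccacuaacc
miR-379-5p: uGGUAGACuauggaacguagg
miR-1193-5p: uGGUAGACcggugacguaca
miR-370-5p: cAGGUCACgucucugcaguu
miR-1193-3p: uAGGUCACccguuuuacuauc
miR-376c-5p: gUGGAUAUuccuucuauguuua
miR-376b-5p: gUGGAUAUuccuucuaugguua
miR-496a-5p: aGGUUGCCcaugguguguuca
miR-453: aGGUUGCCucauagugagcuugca
miR-494-5p: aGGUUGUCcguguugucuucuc
miR-410-5p: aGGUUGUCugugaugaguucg
miR-1197-5p: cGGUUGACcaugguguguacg
miR-758-5p: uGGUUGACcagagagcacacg

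Levels are given as CPM, the sense-strand count of a gene scaled to 1000000 such counts over all microRNA genes. Replicate 1 held 5479267 such counts and replicate 2 held 3563226. The 11 neuronal microRNA genes checked summed to 25585 and 27305 CPM in replicates 1 and 2, with Mir132 at 8514 and 7545 CPM. Nearly all of this sum came from Mir132, Mir128-1, Mir128-2, Mir137 and Mir138-1. Among the others, Mir9-1 stood at 23.5 and 8.70 CPM, Mir9-2 at 3.29 and 3.09 CPM and Mir9-3 at 68.6 and 48.0 CPM. The 3 genes of the neuronal marker miR-124, copies of one mature sequence, had at most 20 counts each, and a read with more than 1 match in the genome was not assigned to any gene. Other cell types contributed too: the summed level of 3 choroid plexus and ciliated cell microRNAs was 4881 and 4705 CPM, that of 3 oligodendrocyte microRNAs 1563 and 2041 CPM, and the endothelial Mir126a stood at 8303 and 7986 CPM. The 3 blood lineage microRNAs summed to 62.4 and 88.1 CPM, the liver microRNA Mir122 stood at 34.7 and 34.2 CPM, and of 5 muscle microRNAs Mir206 stood at 40.2 and 97.1 CPM. The other 4, copies of Mir1a and Mir133a, had no count, which does not show absence where copies share a mature sequence. The part of these cell types in the levels below was not tested. In whole tissue, fewer cells of a type and less RNA per cell cannot be told apart.

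Together the 44 genes held 10.6% ± 0.736 of the sense counts (SD, n = 2). The share was 11.1% in replicate 1 (95% Clopper-Pearson interval 11.07% to 11.12%) and 10.1% in replicate 2 (10.02% to 10.08%), where the intervals cover counting error only. With all reads of each file as the denominator, unmapped reads and reads that match several places included, the share was 3.91%. Genes joined where neighbours lie within 10 kb formed a short group of 4 genes in Rian, the lone gene Mir882, and a long group of 39 genes. The short group held 0.563% ± 0.0164 and the long group 10.0% ± 0.719 of the counts. The proximal group of the same region, which holds Mir127, Mir770 and Mir433 and lies upstream, held 10.3% of the counts in replicate 1 and 12.6% in replicate 2. The ratio of the distal to the proximal share was 1.07 in replicate 1 and 0.799 in replicate 2, so which stood higher differed between the libraries, and 2 libraries allow no test of it.

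A detected gene is one with at least 10 counts in each library. By this measure 38 of the 44 members (86.4%) were detected, against 19.5% of all 2202 microRNA genes. The 38 detected members ran over a 5500-fold range of mean levels, with a median of 807 CPM, beside 87.8 CPM over all 429 detected genes. Of all 44, 3 reached a mean of 10000 CPM, 18 reached 1000 CPM and 33 reached 100 CPM, and 14 were among the 100 most abundant microRNA genes. These medians and ranks rest on reads with a single match in the genome, so genes with several copies, such as those of miR-124, can be placed too low.

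**Figure D1:**
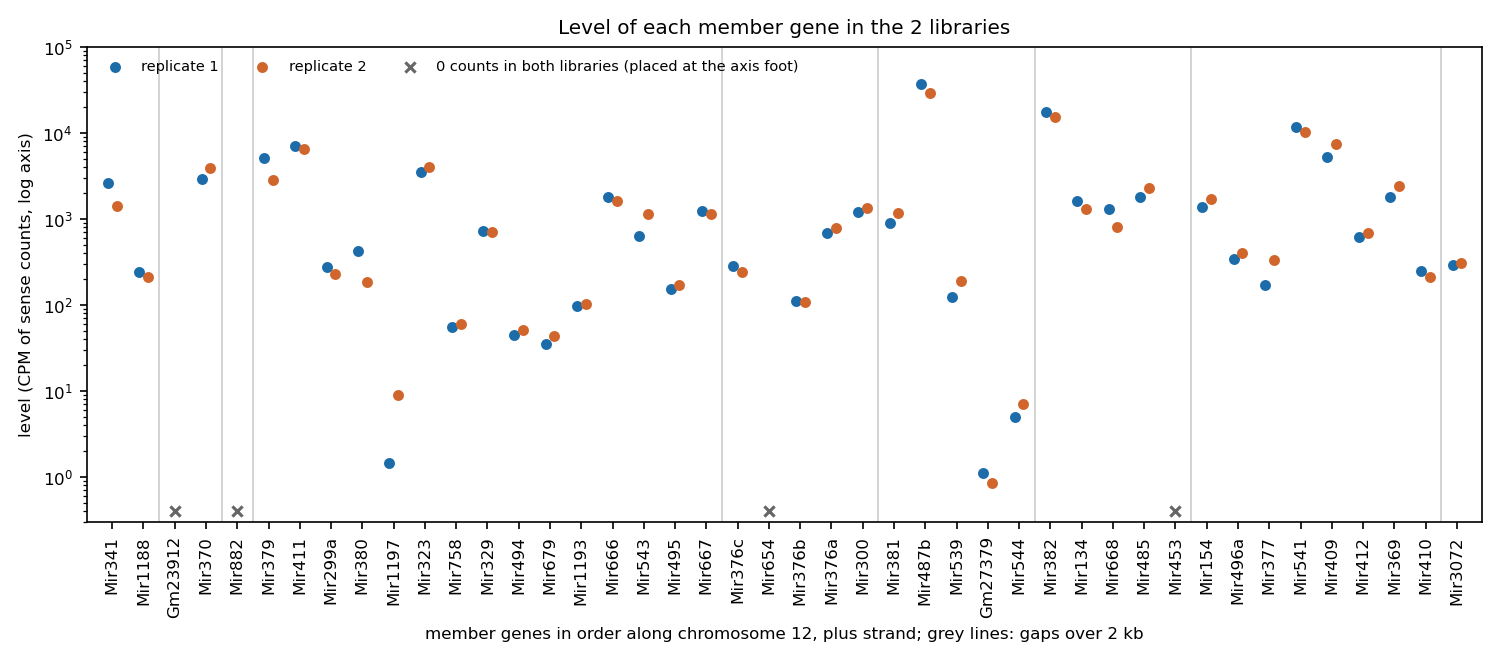
Level of each of the 44 member genes (CPM of sense counts, log axis) in their order along the plus strand of chromosome 12, with replicate 1 in blue and replicate 2 in orange. Crosses at the foot mark 4 genes with no count in either library and grey lines mark gaps of over 2 kb; Mir487b is highest at 36824 and 28861 CPM, and genes next to each other often stand far apart.

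Mir487b (ENSMUSG00000076219.1, chr12:109727333-109727414) led the locus in both libraries. Its level was 36824 CPM in the first library and 28861 CPM in the second, a mean of 32842 ± 5631 CPM (SD, n = 2), and held 33.2% and 28.7% of all counts of the members. No long gene is annotated on the plus strand over it in GENCODE M21. By mean level it was the eighth most abundant of all microRNA genes, counting only reads with a single match in the genome. The other members held 7.41% and 7.17% of all sense counts. Its hairpin shares 20 nt with that of Mir376b, so reads confined to that stretch could be lost from both genes.

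Mir382 (ENSMUSG00000065428.4, chr12:109733771-109733846), whose hairpin lies partly within an exon of Mirg, was next at 17486 and 15516 CPM in replicates 1 and 2. Mir541 (ENSMUSG00000076052.1, chr12:109742409-109742498), in an intron of Mirg, followed at 11686 and 10162 CPM. These 3 genes kept their order in both libraries and their values did not overlap. Together they held 59.5% and 54.3% of the members' counts, and the first 10 genes held 84.2% and 83.4%. To reach 50% of the members' counts took 3 genes, and 90% took 14.

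Below them the order was only partly resolved. Mir411, between Mir379 and Mir299a, stood at 7086 and 6511 CPM, and Mir409, in an intron of Mirg, at 5201 and 7335 CPM, so the libraries put these genes in opposite order. Mir379, the first gene of the long group, stood at 5058 and 2820 CPM. Its values spanned those of both genes that followed it, Mir323 at 3530 and 4035 CPM and Mir370, the leading member within Rian, at 2922 and 3894 CPM. Of 37 neighbouring ranks among the detected members, 15 had values that did not overlap between the genes. The libraries shared 8 of their 10 highest members and 19 of their 20 highest. Spearman's rho between the libraries was 0.978 over the 38 detected members, as a description across genes from the same RNA pools.

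The next genes by rank, with means from 1466 to 2114 CPM, included microRNAs studied at synapses. Mir485, which is known to limit presynaptic strength, stood at 1778 and 2308 CPM. Mir134, an inhibitor of the kinase Limk1 that limits the size of dendritic spines, stood at 1614 and 1318 CPM. Both lie in exons of Mirg, with Mir668 between them at 1288 and 806 CPM. Mir369, known for its binding to AU-rich elements, stood at 1793 and 2434 CPM, Mir341 at 2584 and 1408 CPM, Mir666 at 1810 and 1594 CPM, and Mir154 at 1360 and 1706 CPM. The values of these genes overlapped widely, and Mir341 had the largest spread among them.

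Near a mean of 1000 CPM stood Mir300 at 1210 and 1344 CPM, Mir667 at 1232 and 1144 CPM, Mir381 at 906 and 1162 CPM, Mir543 at 629 and 1129 CPM and Mir376a at 678 and 790 CPM. Mir329, which with Mir134 and Mir381 takes part in activity-dependent dendrite growth, stood at 731 and 710 CPM. These 3 microRNAs of dendrites therefore ranked fourteenth, eighteenth and twenty-first of the members. The other 17 detected members had means from 5.97 CPM (Mir544) to 652 CPM (Mir412).

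The 6 members that were not detected were accounted for singly. Mir654, Mir453, Mir882 and the predicted gene Gm23912 had no count in either library, which allows up to 3 counts, or 0.548 CPM in the first library and 0.842 CPM in the second. None of these 4 hairpins shares 15 nt or more with another annotated microRNA gene, and the rest of the genome was not searched. Gm27379 had 6 and 3 counts in replicates 1 and 2. Mir1197 had 8 and 32 counts, and the exact 95% interval of its log2 ratio, counting error only, ran from 1.41 to 3.89. Mir654 lies between Mir376c and Mir376b, and Mir453 lies after Mir485, so genes without a count sat inside runs of well-covered ones.

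Counts were unevenly spread along the locus. Runs of members were formed where gaps were at most 2 kb, which gave 9 runs. The run from Mir381 to Mir544, which contains Mir487b, spans 2581 nt and held 34.1% and 30.1% of the members' counts in replicates 1 and 2. The run from Mir154 to Mir410 in Mirg held 19.3% and 23.1%, that from Mir382 to Mir453 20.0% and 19.8%, and the first run of the long group, from Mir379 to Mir667, 19.1% and 18.7% in 15 genes. The remaining 5 runs each held under 4% in each library. The number of runs depended on the gap chosen and was 17 at 1 kb and 4 at 5 kb.

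**Figure D2:**
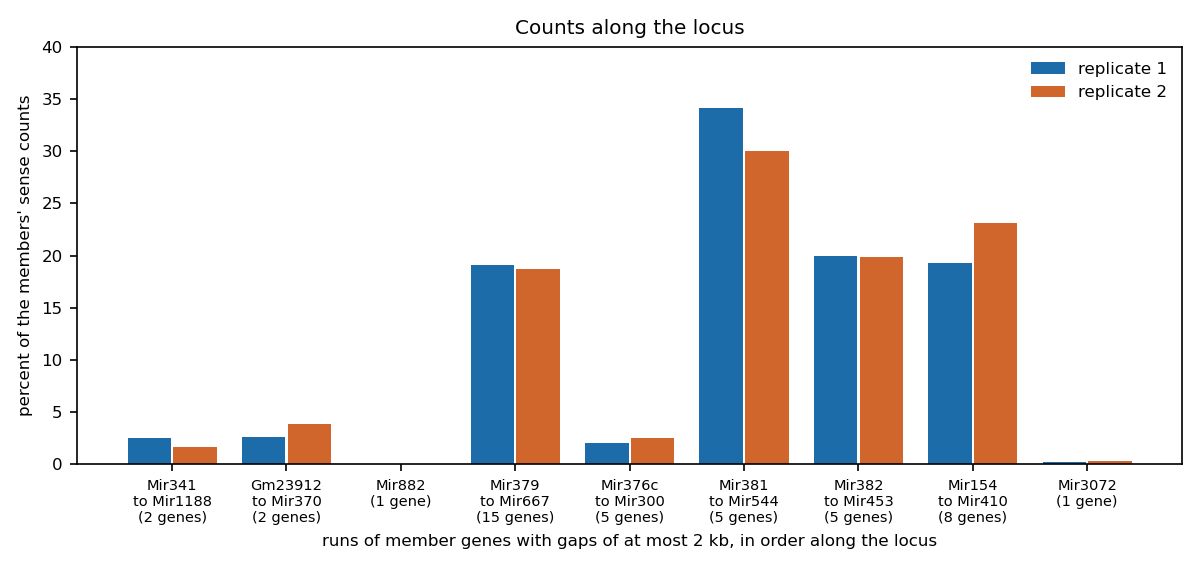
Share of the members' sense counts (percent) in each of 9 runs of neighbouring genes, in order along the locus, for replicate 1 (blue) and replicate 2 (orange). The run from Mir381 to Mir544 is highest at 34.1% and 30.1%, and 4 of the 9 runs hold more than 18% each in both libraries.

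Genes inside a run often stood at very different levels. Among 26 pairs of adjacent detected members within a run of the long group, 17 differed at least 2-fold in mean level and 9 at least 10-fold, with a median difference of 6.04-fold. Mir487b stood 31.8-fold above Mir381, its neighbour 436 nt upstream, and 208-fold above Mir539, its neighbour 714 nt downstream. Mir323 stood 65.6-fold above Mir758 at a distance of 216 nt. The hairpin of Mir758 shares 21 nt with that of Mir411, so reads confined to that stretch could be lost from both genes. Mir409, Mir412, Mir369 and Mir410 follow each other within gaps of 52, 49 and 218 nt, and their means were 6268, 652, 2114 and 229 CPM. The smallest difference among the 26 pairs was 1.19-fold, between Mir299a and Mir380. Position in the long group and level had a Spearman's rho of 0.143 over its 35 detected genes, given as a description.

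By host gene, the 14 members in Mirg held 4.39% of all microRNA counts in replicate 1 and 4.35% in replicate 2, and the 4 in Rian 0.575% and 0.551%. The 26 members outside both genes in this annotation held 6.13% and 5.15%. Of the 14 in Mirg, 13 were detected. Mir134, Mir485, Mir377 and Mir410 lie within exons, Mir382, Mir668, Mir412, Mir369 and Mir3072 lie partly within an exon, and the other 5 lie in introns. All 4 members in Rian, Mir341, Mir1188, Gm23912 and Mir370, lie in introns.

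Members that share a seed often stood at different levels, and pairs without a shared seed were not compared. Mir379 and Mir411, whose 3p arms share the seed AUGUAAC, were the most abundant pair at a summed 12144 and 9331 CPM. Mir411 was the higher of the pair in both libraries, 7086 against 5058 CPM and 6511 against 2820 CPM. Mir379 shares its other seed, GGUAGAC, with Mir1193, which stood at 96.5 and 103 CPM. Mir1193 also shares AGGUCAC with Mir370, so it was the lower partner in both of its pairs.

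Of the remaining pairs, Mir376c and Mir376b (UGGAUAU) stood at 283 and 243 CPM and at 111 and 109 CPM. Their hairpins have 80.7% identity and share a stretch of 31 nt, longer than a mature arm, so reads confined to it are in no gene count and both levels are uncertain. Mir494 and Mir410 (GGUUGUC) summed to 292 and 262 CPM, of which Mir410 held the larger part, at 247 and 211 CPM. Mir496a (GGUUGCC) stood at 343 and 397 CPM and its partner Mir453 had no count. Mir758 (GGUUGAC) stood at 54.9 and 60.3 CPM and its partner Mir1197 at 1.46 and 8.98 CPM. These sums cover both arms of each gene, so the level of the arm with the shared seed was not measured. With the seed shortened to bases 2 to 7 there were 9 groups, and the added ones joined Mir495 with Mir382 and Mir329 with Mir377.

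**Figure D3:**
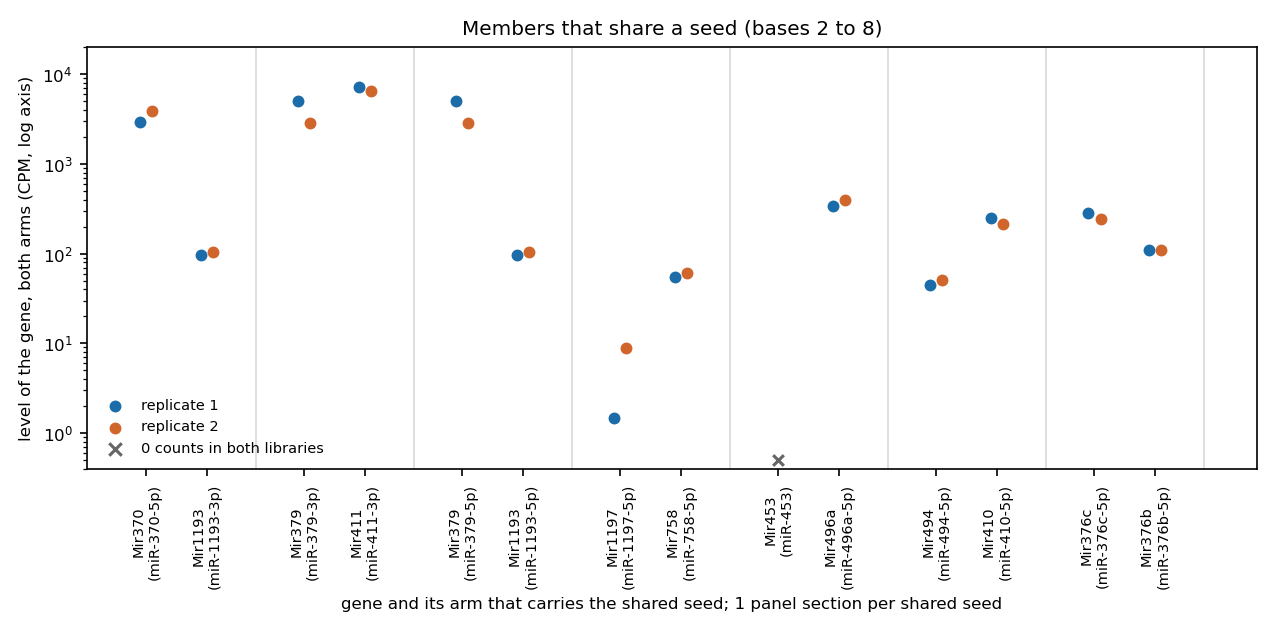
Level of each gene in the 7 seed groups (CPM, both arms of the gene, log axis), in replicate 1 (blue) and replicate 2 (orange), with the arm that carries the shared seed in brackets and grey lines between groups. Mir379 and Mir411 are the only pair with both genes above 1000 CPM, and Mir453 has no count (cross).

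Most seeds of these arms belonged to a single member: of 71 distinct seeds in the table, 64 were found in 1 gene only. Many were close to another, and 38 pairs of same-side arms differed by a single seed base. Positions are counted from 1 at the 5′ end, with the base of the first-named arm first. The 5p arms of Mir379 and Mir411 differ in the seed by G2A, so this pair shares a seed on one arm and nearly so on the other. The 3p arms of Mir300 and Mir381, known as close relatives, differ in the seed by G4A and at 3 of 22 positions in all, and those of Mir376b and Mir376a differ in the seed by A4G and at 3 of 21 positions. These 4 arms show how similar the sequences are outside the seed.
miR-300-3p: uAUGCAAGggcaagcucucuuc
miR-381-3p: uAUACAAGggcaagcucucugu
miR-376b-3p: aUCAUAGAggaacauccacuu
miR-376a-3p: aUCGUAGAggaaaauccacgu

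One seed pattern recurred across the locus. The letters GGUNNNC over bases 2 to 8, where N is any base, were found in 15 of 78 member arms (19.2%) and in 3 of 1601 mature arms of other mouse microRNAs (0.187%). The search read the arm sequence as written, and the pattern was chosen after the sequences were seen. It includes 4 of the 7 shared seeds and the 5p arm of the leading gene Mir487b, whose seed differs by 1 base from those of the 5p arms of Mir494 (G6A, from Mir494) and Mir410 (A6G, from Mir487b). The other arms with it are those of Mir341, Mir299a, Mir323, Mir654, Mir409 and Mir412. The 15 genes held 49.5% and 46.0% of the members' counts in replicates 1 and 2, the larger part of it from Mir487b. These counts cover both arms of each gene, so the share from arms with the pattern was not measured.

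Seeds of 11 members were also found in 14 microRNA genes that are not members, of which 3 were detected. Of the 14, Mir299b lies inside the window, on the strand opposite Mir299a. Mir1983, with the seed of miR-412-3p, stood at 4239 and 3310 CPM, above Mir412 itself. Mir672, with the seed of miR-377-5p, stood at 1193 and 830 CPM, above Mir377 at 171 and 332 CPM. Mir362, with the seed of miR-329-3p, stood at 78.1 and 75.8 CPM, below Mir329. The next by level, Mir344d-1, had 5 and 1 counts, and the remaining relatives, Mir1192 among them, had none. Mir344d-1, Mir344d-2 and Mir344d-3 carry the same arm, so reads that match several of these copies are in no gene count. Their low counts do not show absence.

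Replicate 2 was set against replicate 1, gene by gene, in an exact binomial test (two-sided) on TMM-scaled library sizes, with Benjamini-Hochberg adjustment over all 429 detected genes and a threshold of 0.05. The test compares 2 pools of mice, not conditions, and its threshold is set by counting error. Of the 38 detected members, 29 differed (76.3%), beside 61.3% of all detected genes. Of the 29, 13 were higher in replicate 2, where 28.7% of all detected genes were, and 16 were lower, where 32.6% were. The members have more counts than most genes. With a minimum of 100 counts, 30 of 37 members (81.1%) and 82.8% of all genes differed, so the members' share was then not above the background. Only Mir380 differed at least 2-fold, a size reached by 11.9% of all detected genes.

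The locus did not move as a block between the libraries. The median log2 ratio of replicate 2 to replicate 1 was 0.06 over the 38 members and 0.05 over all detected genes, and the median absolute log2 ratio was 0.27 beside 0.33. Scaling by the total of the members themselves raised the ratio of every gene by 0.20, and the median over all detected genes was then 0.25. With this scaling 29 members (76.3%) differed in either direction, beside 61.8% of all detected genes.

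The lowest ratios were those of Mir380, Mir341 and Mir379, which lie toward the 5′ side of their groups. The next lowest was that of Mir668, far along the long group in Mirg, with a log2 ratio of -0.74. A relation between position and ratio was not tested. Mir380 stood at 424 and 182 CPM in replicates 1 and 2, and its log2 ratio was -1.28 (95% interval -1.41 to -1.15, adjusted p = 2.31e-101 in the exact binomial test). Mir341 stood at 2584 and 1408 CPM, a log2 ratio of -0.94 (exact 95% interval -0.98 to -0.89), and Mir379 at 5058 and 2820 CPM, a log2 ratio of -0.90 (-0.94 to -0.87). Their adjusted p-values were too small to be held as numbers. The next genes along the locus did not share these values, since Mir1188, next to Mir341, had -0.24 and Mir411, next to Mir379, had -0.18, which turned to 0.020 when scaled by the member total. Mir411 was the steadier of the pair that shares AUGUAAC.

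The highest ratios were those of Mir377, in an exon of Mirg, at 171 and 332 CPM and a log2 ratio of 0.90 (adjusted p = 1.05e-45, exact binomial test), Mir543 at 629 and 1129 CPM and 0.78 (adjusted p = 2.02e-120), and Mir539 at 125 and 191 CPM and 0.55 (adjusted p = 6.66e-12). The leading genes moved less than these extremes: the log2 ratio was -0.41 for Mir487b, -0.23 for Mir382, -0.26 for Mir541 and 0.43 for Mir409. In size, those of Mir487b and Mir409 were above the members' median of 0.27, and those of Mir382 and Mir541 below it. Among the microRNAs of dendrites and synapses, Mir134 had -0.35, Mir329 -0.10, Mir381 0.30 and Mir485 0.32, each past the threshold, but Mir329 turned to 0.10 when scaled by the member total and had no call with library totals (-0.041) or without regard to strand (-0.075). The 9 genes without a call included Mir412, Mir495, Mir376b and Mir3072, and a missed threshold does not show equal levels. Mir412 was called higher in replicate 2 under 4 alternatives and Mir495 under 2.

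**Figure D4:**
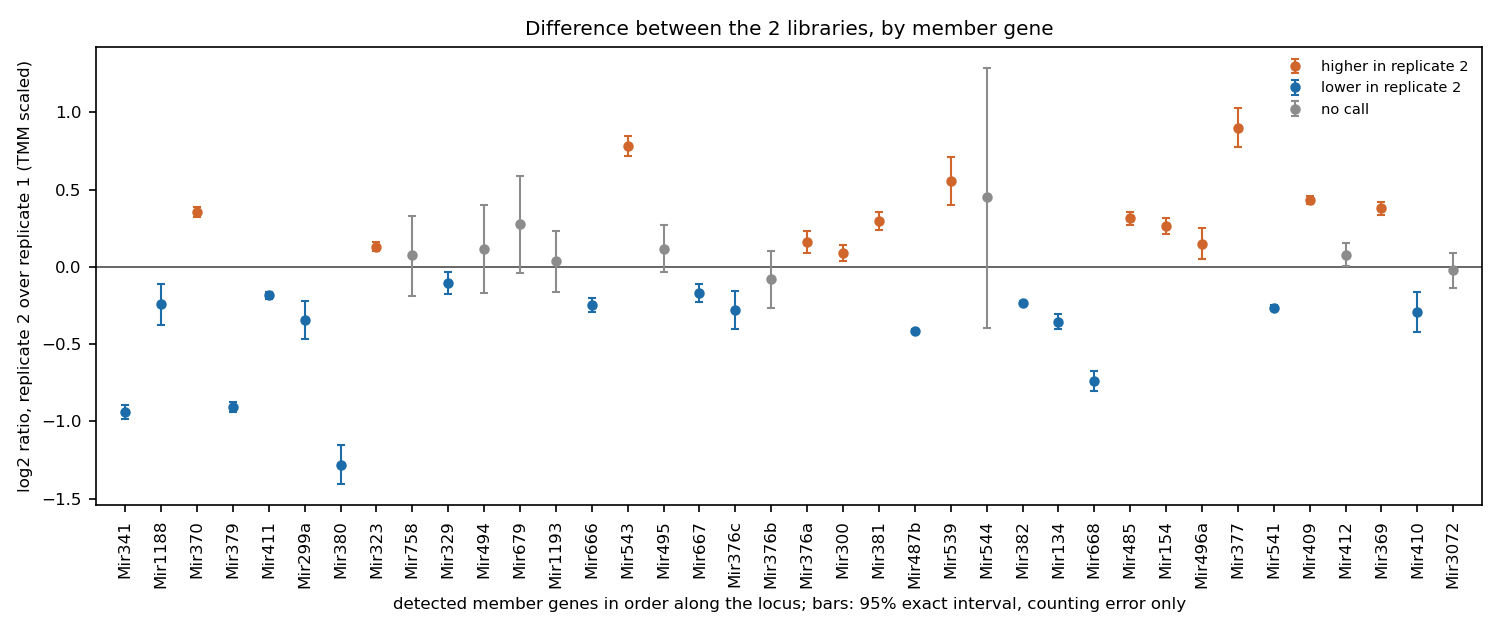
Log2 ratio of replicate 2 over replicate 1 (TMM scaled) for the 38 detected members in order along the locus, with 95% exact intervals for counting error. Orange genes were higher and blue genes lower in replicate 2 past the adjusted threshold, and grey genes had no call; Mir380 is lowest at -1.28 and Mir377 highest at 0.90.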

How the data were processed

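Counts came from 2 libraries of 1 group and were deposited by the authors as raw counts per microRNA gene, on each strand and without regard to strand. Per the notes deposited with each library, genes are those of GENCODE M21 on mm10. Aligner and counting program: not given in the sources used here. The strand column with the larger total on gene rows was taken as sense. In replicates 1 and 2, reads matching several places made up 43.2% and 39.3% of all reads, unmapped reads 14.2% and 18.0%, and reads outside genes 6.16% and 5.17%. These reads stayed out of library sizes and tests.

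TMM factors were from edgeR 4.0.16 (0.979 and 1.02). Ratios add 0.5 counts to each library. The binomial test used scipy 1.17.1 and was tested on simulated data. The simulated counts held counting error only, as the test assumes, so they do not show how it behaves on different pools of mice. Hairpins of GENCODE M21 were folded with ViennaRNA 2.7.2 and aligned in pairs with Biopython 1.88. Nothing in the labels ties the libraries into pairs. No count of changed genes between conditions was possible with 1 group, and p-values cover counting error only.

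The members and lists were chosen with earlier results of these data known. Values in each library are given for the 20 members of highest mean, members of seed groups, the 3 highest and 3 lowest ratios with a mean of at least 100 counts, and members not detected. Other members are named as examples chosen after their values were seen. Alternatives were other count minimums, scalings by DESeq2 1.42.0, library totals or the member total, counts without regard to strand, 1 count added, other gaps and seeds, and each library alone.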

Additional observations from a re-analysis of the deposited data

How the results depend on the processing

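With all reads as the denominator the share of the 44 genes was 3.91%, of the long group 3.70%, of the short group 0.208% and of the proximal group 4.24%. With the leading gene of each set removed from both the set and the total, these shares were 7.54%, 6.95%, 0.223% and 6.86%. Averaged over the libraries, the distal share then stood above the proximal one. With all genes kept, its mean was below, 10.6% against 11.5%, and the order differed between the libraries. Counts without regard to strand gave 0.599% for the short group and left 33 members detected, since Mir299a, Mir380, Mir376a, Mir539 and Mir409 have a gene on the opposite strand and no such count. The median log2 ratio of the members was 0.26 when scaled by the member total, beside 0.25 over all detected genes. There were 17 runs with gaps of at most 1 kb and 4 with gaps of at most 5 kb. Scaled by the member total, the log2 ratio turned to 0.020 for Mir411, 0.10 for Mir329, 0.036 for Mir667, 0.12 for Mir376b and 0.18 for Mir3072. Mir3072 also turned to 0.041 with library totals and 0.0066 without regard to strand. Calls were lost for Mir1188 (-0.039), Mir666 (-0.042), Mir376c (-0.076) and Mir410 (-0.085) when scaled by the member total, and for Mir329 with library totals (-0.041) and without regard to strand (-0.075). Calls were gained for Mir412 (0.14 with library totals, 0.28 with the member total, 0.11 without regard to strand, 0.08 with a minimum of 100 counts), for Mir495 (0.18 with library totals, 0.32 with the member total), and with the member total for Mir494, Mir679 and Mir1193 (0.32, 0.48 and 0.24). Over the 7 alternatives, 24 to 30 members differed, of 33 to 40 tested. The share of members that differed ran from 72.7% (without regard to strand) to 81.1% (minimum of 100 counts). That of all tested genes ran from 35.3% (no minimum) to 82.8% (minimum of 100 counts). Either library alone gave 38 or 39 members detected. With 2 libraries, only the spread between them measures biological error, and differences of the size of that spread were not resolvable. No paired analysis was possible because the series has 1 group.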

Other observations

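The hairpins of the locus resemble each other in part. Over 946 pairs of members the median identity of the GENCODE M21 hairpins was 49.0%, 104 pairs had at least 60% and 11 at least 70%. The closest pair was Mir376c and Mir376b at 80.7%, followed by Mir411 and Mir758 at 73.8%, which share a stretch of 21 nt, and Mir300 and Mir381 at 73.8%. The hairpin of Mir494 had at least 60% identity with 18 others and those of Mir487b, Mir382 and Mir410 with 14 each, whereas those of Mir541, Mir666, Mir667, Mir668 and Mir3072 had no such relative in the window. The leading genes Mir487b and Mir382 therefore come from the related hairpins, and Mir541 does not.

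Other letters recurred in the mature arms. GGUNGAC was found in 9 of 78 member arms (11.5%) and in 0.250% of 1601 other mouse arms. The shorter GUUGNC was in 14 member arms (17.9%) and 0.937% of the others, and 1 arm each of Mir380, Mir1197, Mir758, Mir134 and Mir154 held both, where the letters overlap. ACACGG was in 5 arms (6.41%), of Mir411, Mir323, Mir494, Mir485 and Mir154, and in 0.125% of the others. The contrast was smaller for ACAUGG, in 5 arms (6.41%) and 1.19% of the others. It was also smaller for the wider ACANGG, in 11 arms (14.1%) and 2.56% of the others. All these letters were chosen after the sequences were seen and were searched on the arm strand only.

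Composition and level were weakly related. The hairpins had a median GC content of 45.3%, from 29.1% in Mir376c to 72.3% in Mir3072, beside 52.1% over all detected genes. Spearman's rho with the mean level over the 38 detected members was 0.221 for GC content, -0.197 for the folding energy per nt and 0.03 for the hairpin length. These are descriptions across genes from the same libraries.

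Of the 44 members, none had an antisense count in either library. For the 5 members with a microRNA gene on the opposite strand, that gene had no sense count: Mir409 had 28499 and 26135 sense counts, and its opposite gene Gm24321 had none.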
